A study of Mus musculus with 12 samples.

Results

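The transcripts described here rose in mouse lung tumors within 1 day of the loss of a mutant oncogene and were still high after 2 days. They are 217 probes of the 45281 on the array, chosen by their own values. A probe was taken if its level, as the mean of 4 arrays on the log2 scale of the authors' value table, was at least 0.7 higher at 24 h and at least 0.7 higher at 48 h than with the oncogene on. All 8 arrays of the off groups also had to lie above all 4 arrays of the on group, and the probe had to be detected on 4 or more of the 12 arrays. The rise itself is therefore the criterion and not a finding, so it is given below as a description with no test. Of the 217 probes, 200 carry 1 gene symbol and stand for 176 genes, and 17 are unnamed here and go by their probe IDs.

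Tumors were microdissected from the lungs of FVB/SV129 mice aged 19 weeks and snap-frozen. There were 3 groups of 4 RNA samples: oncogene on, oncogene off for 24 h and oncogene off for 48 h. All groups carried the same switchable mutant oncogene, and neither the switch nor the cells that expressed it are given in the sources used here. Whether samples came from separate mice is not stated either, so the p-values below measure the spread between these samples, which may be technical. Each sample was read on 1 Illumina array. All on samples shared a BeadChip with 48 h replicates 1 and 2, called the first chip below. All 24 h samples shared the second chip with 48 h replicates 3 and 4. Group and chip therefore cannot be told apart between the on and the 24 h samples.

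Lung alveoli are lined by flat type 1 cells, across which gas diffuses, and by cuboidal type 2 cells, which secrete surfactant and can give rise to type 1 cells. Type 1 cells lie against a dense capillary bed and a thin interstitium with fibroblasts and matrix. Oncogenic growth factor signalling acts partly through kinase cascades that keep FOXO transcription factors out of the nucleus. Cells of mouse lung tumors often resemble type 2 cells, and in a bulk tumor sample their RNA is mixed with that of vessels, stroma and blood. In such samples, fewer cells of a type and less RNA per cell cannot be told apart.

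Values are normalized log2 intensities, so that a difference of 1 is 2-fold. The level of one probe cannot be set against that of another. The share of probes detected on an array ranged from 42.5% to 46.2%. The surfactant gene Sftpc, a type 2 marker, was at 13.92 or higher on every array. The haemoglobin gene Hba-a1, a red blood cell marker, lay between 10.65 and 11.47 in the on samples, between 12.29 and 13.55 at 24 h and between 9.33 and 11.85 at 48 h. Xist, which is transcribed from the inactive X chromosome of female cells, was at 5.15 and 5.48 in on replicates 1 and 4 and at 4.20 in 24 h replicate 4, and at 10.48 or higher on the other 9 arrays. The groups thus differed in this marker of sex, and its part in the results was not tested.

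For 4 members the promoter is shown, because it holds a sequence word searched for in all member promoters and the gene recurs below. The windows run from 250 bases before to 50 bases after the annotated start, 5′ to 3′ on the gene's strand, and come from RefSeq on GRCm38.p6. Capitals mark the word found. Txnip and Sesn1 belong to the list of FOXO target genes and hold the forkhead word GTAAACA or its reverse complement. Il7r and Tsc22d3, the other members on that list, had no match in their windows. In Sesn1 the word starts 22 bases after the annotated start, and another Sesn1 window lacks it. Txnip is at chr3:96557707-96558006 on the plus strand and Sesn1 at chr10:41810324-41810623 on the plus strand. Hopx, a type 1 cell gene, holds the reverse complement of CTCAAG, the core word of the lung factor NKX2-1, at chr5:77115074-77115373 on the minus strand. Fam180a holds the AP-1 word TGAGTCA at chr6:35326092-35326391 on the minus strand.
Txnip: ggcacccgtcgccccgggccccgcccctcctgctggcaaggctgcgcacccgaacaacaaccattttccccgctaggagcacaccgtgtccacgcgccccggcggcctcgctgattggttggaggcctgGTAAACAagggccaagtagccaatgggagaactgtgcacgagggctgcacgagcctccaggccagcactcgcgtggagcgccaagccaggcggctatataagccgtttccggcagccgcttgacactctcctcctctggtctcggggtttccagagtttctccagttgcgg
Sesn1: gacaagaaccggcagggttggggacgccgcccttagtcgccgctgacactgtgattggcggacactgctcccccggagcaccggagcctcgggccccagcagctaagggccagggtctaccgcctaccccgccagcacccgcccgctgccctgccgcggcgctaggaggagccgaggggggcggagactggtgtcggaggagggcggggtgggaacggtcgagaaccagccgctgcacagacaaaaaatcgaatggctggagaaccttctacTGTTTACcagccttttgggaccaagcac
Hopx: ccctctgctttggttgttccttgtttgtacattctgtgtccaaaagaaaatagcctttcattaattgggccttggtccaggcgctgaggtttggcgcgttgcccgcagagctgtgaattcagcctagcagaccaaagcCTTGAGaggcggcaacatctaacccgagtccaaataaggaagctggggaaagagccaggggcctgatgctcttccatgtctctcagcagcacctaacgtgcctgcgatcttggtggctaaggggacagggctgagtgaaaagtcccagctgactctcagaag
Fam180a: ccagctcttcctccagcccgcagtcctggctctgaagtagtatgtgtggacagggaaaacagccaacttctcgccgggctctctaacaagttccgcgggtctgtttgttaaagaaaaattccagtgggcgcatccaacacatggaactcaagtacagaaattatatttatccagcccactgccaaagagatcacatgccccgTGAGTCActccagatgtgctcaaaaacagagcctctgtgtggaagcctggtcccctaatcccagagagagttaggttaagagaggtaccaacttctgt

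RefSeq promoters were matched by symbol for 122 of the 176 genes, which gave 167 windows, against 32851 windows over all genes. The forkhead word occurred on either strand in 3.6% of member windows and 3.6% of all windows. It was found for 6 member genes, which were Dnajc6, Gsap, Limch1, Sec16b, Sesn1 and Txnip. The NKX2-1 word was in 10.8% of member windows and 15.9% of all windows, and the AP-1 word in 0.6% and 5.2%, with Fam180a as the only member gene. The E-box CACGTG was in 7.8% of member windows and 7.2% of all windows, the CRE word TGACGTCA in 1.2% and 1.8%, the STAT word TTCNNNGAA in 6.0% and 8.3%, and CCAAT in 37.1% and 37.4%. The interferon-stimulated response element was in 3.6% of member windows and 3.4% of all windows. Some of these words can overlap others, and no test was made. A match is a description of these letters and does not show that a factor binds.

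The size of the rise differed several-fold among members. The median log2 change was 0.96 at 24 h against on, with a range of 0.34 to 3.12, and 0.92 at 48 h against on, with a range of 0.27 to 2.22. Over all 21232 probes tested the medians were -0.02 and -0.01. The low ends of both ranges come from members undetected on all on arrays, whose fitted changes are no measure of fold. Among the 201 members detected on at least 1 on array, the medians were 0.98 and 0.93. Their ranges were 0.583 to 3.12 at 24 h and 0.525 to 2.22 at 48 h. Of these 201, levels at least 2-fold higher were reached by 97 at 24 h, by 78 at 48 h and by 41 at both. Levels at least 4-fold higher were reached by 4 at 24 h and 1 at 48 h. The change was larger at 24 h for 116 members and larger at 48 h for 101. In the on samples the median level of members was 6.82, beside 6.80 over all probes tested. The map of the 217 members on the 12 arrays shows these levels.

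**Figure D1:**
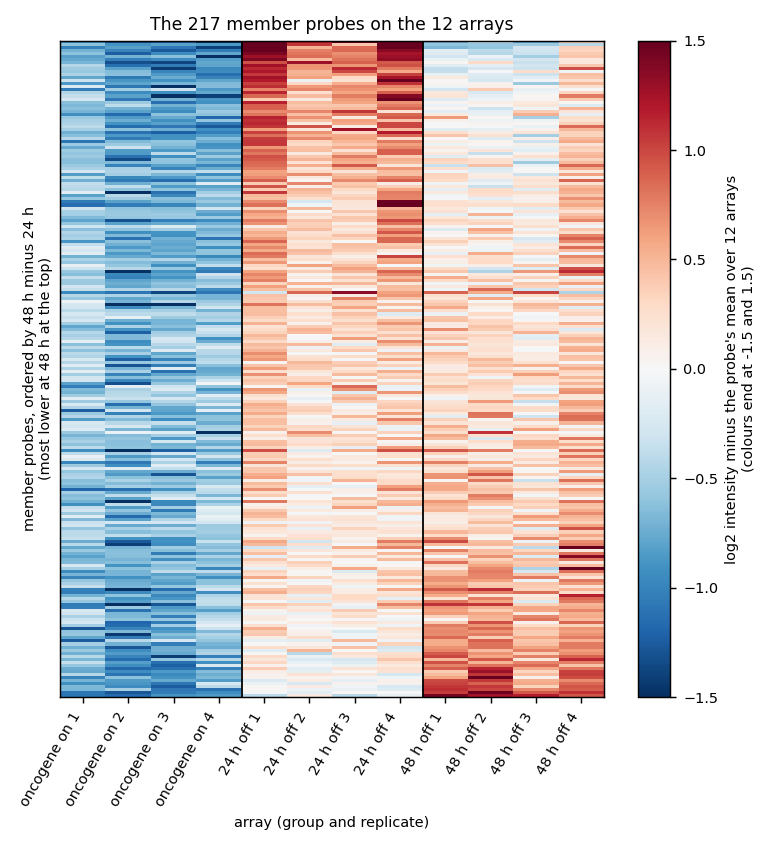
Normalized log2 intensity of the 217 member probes (rows) on the 12 arrays (columns, on, 24 h off and 48 h off), minus each probe's mean over the 12 arrays, with colours ending at -1.5 and 1.5. Rows are ordered by the difference of 48 h from 24 h; all on arrays are below all off arrays by the way members were chosen, and the 31 members called lower and 24 called higher at 48 h lie toward the top and the bottom.

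Single arrays differed in how high the members stood. Relative to the mean of the on samples, the median over members was 1.08, 0.87, 0.93 and 1.05 in 24 h replicates 1 to 4 and 0.90, 0.91, 0.81 and 1.14 in 48 h replicates 1 to 4. Replicates 1 and 4 were the pair of highest arrays for 105 of the 217 members at 24 h. At 48 h replicate 4 was the highest for 110 members and replicate 3 the lowest for 96. The 48 h arrays on the first chip, which they shared with the on samples, had a median change of 0.92 against on, and those on the second chip 0.95. Both values come from arrays that the choice of members used.

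The size of a change depends on the background for the dimmest members. On all 4 on arrays 16 members were undetected, so that only a lower bound can be given for their rise. The bound sets the mean of the brighter group against the lowest level of any detected probe in the on samples. It was 1.11-fold to 3.08-fold for the 13 members that had one at 24 h, and 1.06-fold to 3.78-fold for 12 at 48 h. Among the 201 others, 169 were detected on all 12 arrays.

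The threshold of 0.7 falls in a dense part of the distribution. On the restored scale of the value table, the members just inside it at 24 h were ILMN_1255967 and Wdr45 at 0.70 and Sema3f at 0.7025, and the probes just outside were a second probe of Npc1 at 0.6975, Fam229b at 0.695 and Tle4 at 0.685. At 48 h Sema3e at 0.70, Cyria at 0.7025 and Mras at 0.705 were just inside. A probe of Tmod1 was just outside at a printed 0.70, below the threshold only through the rounding of the deposited values, followed by another probe of Cd93 at 0.6975 and ILMN_2557319 at 0.695.

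Other probes of the member genes give a view of the same transcripts that the choice of members used only in part. Among the 176 genes, 76 had another probe that was tested, 113 probes in all. Of these, 86 were higher than on at both times, 7 were lower at both and 20 went up at one time and down at the other. Their median change was 0.52 at 24 h and 0.38 at 48 h, beside -0.02 and -0.01 over all probes tested. Both were smaller than in the members. In 14 of them the off arrays all lay above the on arrays. The same counts over all probes tested are not given here, so nothing is read from those of these probes. Npc1, which exports cholesterol from lysosomes, shows how far probes of 1 gene can part. Its member probe changed by 1.18 at 24 h and 1.16 at 48 h, a further probe by 0.70 and 1.06, and probe ILMN_1250418 by -0.57 and -0.61.

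There were 22 genes with more than 1 member probe, together 46 probes. Notum and Ociad2 had 3 each, and the others were Antxr1, Dkk3, Ednrb, Fam184a, Fhl1, Galnt18, Ifit2, Khk, Lims2, Ltbp4, Mest, Mras, Rasl11b, Rtkn2, Sema4f, Sesn1, Slc10a6, Snhg11, Sox17 and Timp3. How close the probes of a gene lay varied. Both probes of Fhl1, a LIM domain protein of muscle, lay between 0.98 and 1.05 at 24 h and between 1.26 and 1.33 at 48 h. The 2 probes of Antxr1, a cell surface receptor for anthrax toxin that binds collagen, lay between 0.88 and 0.97 at 24 h and at 1.00 at 48 h. Ociad2 lay between 0.74 and 0.86 at 24 h and between 0.92 and 1.05 at 48 h over its 3 probes. Rasl11b, a small GTPase, lay between 1.16 and 1.21 at 24 h and between 1.48 and 1.56 at 48 h. The member probes of Fam184a lay further apart, between 1.11 and 1.77 at 24 h and between 1.33 and 1.82 at 48 h. Those of Timp3 ran opposite ways between the times, as described with the proteases below.

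The member probes with the largest rise at both times, ranked by the smaller of the 2 changes, belonged to Fam184a, Rassf8, Fam180a, Snhg11 with 2 probes, Rgs9, Phactr1, Hopx, Col4a4 and Notum. Fam184a, whose function is little known, read 5.95, 5.10, 5.65 and 6.03 in the on samples, 7.84, 6.68, 7.43 and 7.84 at 24 h, and 7.80, 7.66, 6.85 and 7.71 at 48 h. The log2 change was 1.77 at 24 h and 1.82 at 48 h. The 24 h and 48 h values of this probe overlapped throughout, with 1 low array in each group. Another Fam184a probe, ILMN_2671276, was not a member though detected on all 12 arrays. It changed by -0.0007 at 24 h and -0.01 at 48 h, so the rise is that of the member probes and not settled for the gene.

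Rassf8, a member of the RASSF family of scaffold proteins, read 5.32, 5.21, 4.93 and 5.20 in the on samples, 6.003, 7.15, 7.63 and 6.89 at 24 h, and 7.17, 6.85, 7.30 and 5.84 at 48 h. Its off values spread over more than 1 log2 unit in each group, while its on values lay close together. Fam180a read 5.96, 4.97, 5.63 and 5.46 in the on samples, 7.13, 6.91, 7.03 and 7.40 at 24 h, and 6.94, 6.08, 7.17 and 7.64 at 48 h. Its lowest 48 h value, in replicate 2, exceeded the highest on value by little, and with the chip as a term in the fit its change at 24 h was 0.72 in place of 1.62.

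Snhg11 is a noncoding transcript that hosts small nucleolar RNAs. Its brighter probe read 6.88, 6.19, 6.65 and 7.54 in the on samples, 8.34, 8.27, 7.88 and 8.66 at 24 h, and 9.01, 8.99, 8.27 and 8.44 at 48 h. The change was 1.47 at 24 h by both probes, and 1.82 and 1.86 at 48 h. Snhg11 values at 48 h were higher on the first chip, in replicates 1 and 2, than on the second.

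Rgs9, which speeds the shut-off of G protein signals, read 5.06, 4.61, 4.76 and 4.81 in the on samples, where 1 of 4 arrays detected it. It read 6.17, 5.87, 5.72 and 6.25 at 24 h and 5.76, 6.43, 5.60 and 6.37 at 48 h. Phactr1, a regulator of protein phosphatase and actin, changed by 1.44 at 24 h and 1.59 at 48 h, and its off arrays lay between 8.25 and 8.87 against 6.36 to 7.37 in the on samples. For both genes the 24 h and 48 h arrays overlapped.

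Hopx, a homeodomain-only protein and a marker of type 1 cells, read 11.01, 10.49, 10.76 and 10.84 in the on samples, 12.57, 12.22, 12.18 and 12.79 at 24 h, and 12.13, 12.06, 11.96 and 12.51 at 48 h. Its change was 1.66 at 24 h and 1.39 at 48 h, and within the chip of the on samples it was 1.32 at 48 h. The off arrays of Hopx stood well clear of the on arrays. Col4a4, a chain of the basement membrane collagen IV, read 7.01, 5.74, 5.70 and 6.83 in the on samples, 8.09, 7.75, 7.63 and 7.77 at 24 h, and 7.70, 7.52, 7.77 and 7.81 at 48 h. The on samples fell into a higher and a lower pair, and the off arrays lay closer together.

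Notum is a secreted enzyme that removes the lipid from Wnt proteins and so inactivates them. Its brightest probe read 5.63, 5.21, 5.26 and 5.37 in the on samples, 6.77, 6.21, 6.60 and 6.63 at 24 h, and 7.28, 7.53, 6.95 and 7.17 at 48 h. The other 2 probes were undetected on all on arrays and their rise was at least 1.19-fold and 1.36-fold at 24 h and at least 1.86-fold and 1.91-fold at 48 h. The probe ranked among the largest rises is the first of these 2, so its rank rests on on values below the detection limit. All 3 probes of Notum were higher at 48 h than at 24 h, by 0.68, 0.64 and 0.49 (limma adjusted p = 0.00775, 0.0133 and 0.0162).

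**Figure D2:**
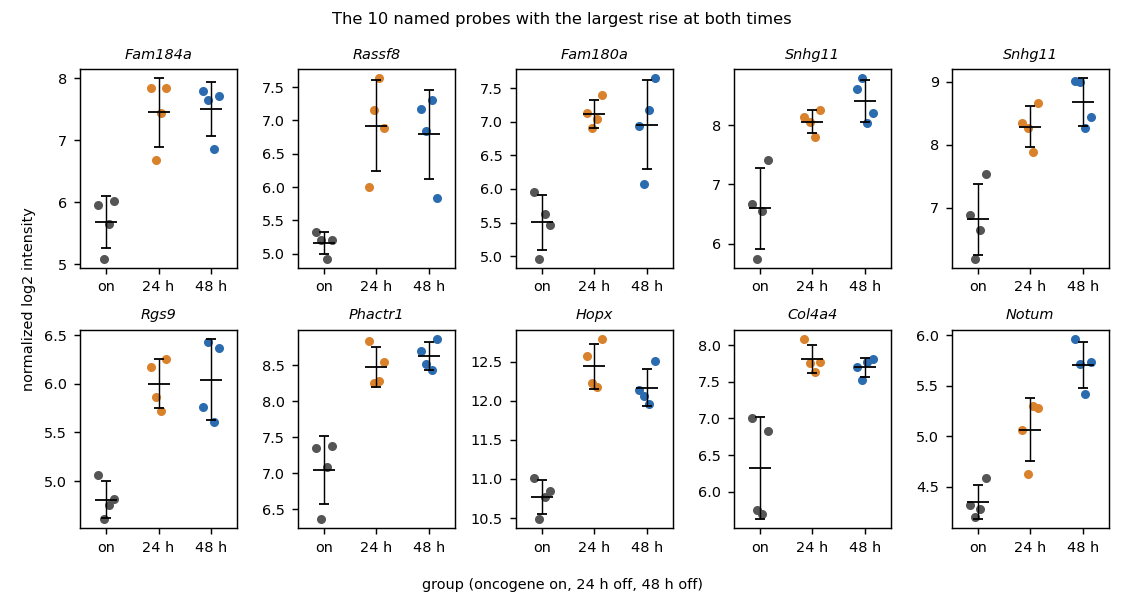
Normalized log2 intensity (y axis) of the 10 named member probes with the largest rise at both times, on each array (points), with mean and SD (bars, n = 4) in the on, 24 h off and 48 h off groups. Snhg11 appears as 2 probes; in each panel all off points lie above all on points, as the choice of members requires, and the 24 h and 48 h points overlap for all but the panel of Notum.

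The difference between 48 h and 24 h was not part of the choice of members, although it rests on the same arrays. Relative to 24 h, 24 members were higher at 48 h, 31 were lower and 162 did not pass the test (limma, adjusted p below 0.05 over all probes tested). That is 11.1% higher and 14.3% lower among members, beside 12.9% higher and 13.8% lower among all probes tested. The shares of members are near this background. The median difference was -0.02 over members and 0.01 over all probes tested. The 2 groups of off samples differ in part by chip. With the chip as a term in the fit, 5 members passed as higher and 7 as lower. Among all probes tested, 2.35% were higher and 3.6% lower in this fit. Its difference comes from 48 h replicates 3 and 4 and the 24 h samples, which all lie on the second chip. All 55 members called in the main fit kept their direction, but these arrays also made the calls, so nothing is read from this. A fit within the second chip takes the difference from the same arrays and is not a separate check. Within the second chip alone, where 2 of the 48 h samples met 4 of the 24 h samples, 3 passed as higher and 2 as lower, beside 0.744% and 1.3% of all probes tested. Without 48 h replicate 2 the number lower was 16, and without 24 h replicate 1 it was 17.

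**Figure D3:**
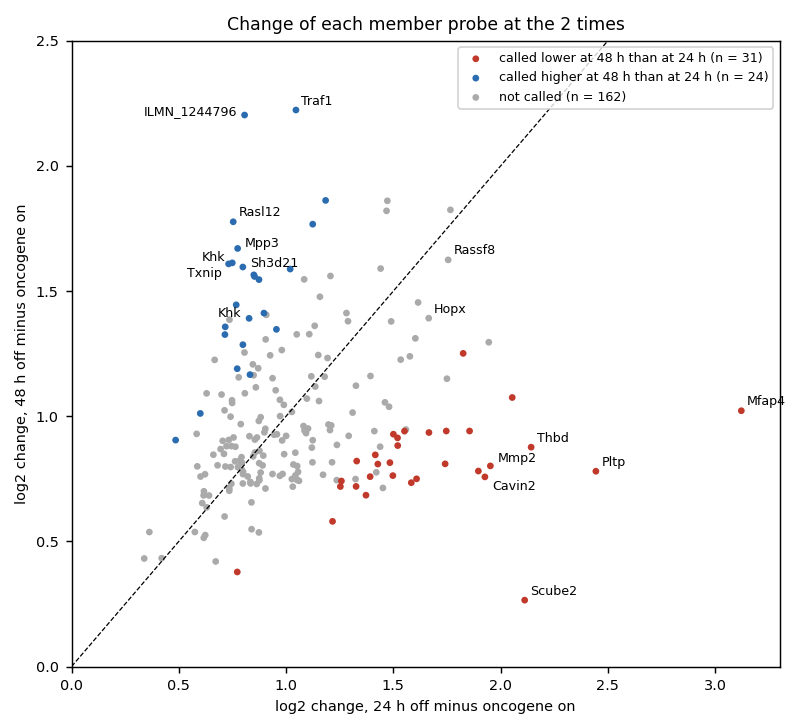
Log2 change of each member probe against the on samples at 24 h off (x axis) and at 48 h off (y axis), one point per probe, with the dashed line marking equal change. Red points (31) were called lower and blue points (24) higher at 48 h than at 24 h, and grey points (162) were not called; Mfap4 stands alone at the right with 3.12 at 24 h, and Traf1 at the top with 2.22 at 48 h, while the 16 members undetected on all on arrays, ILMN_1244796 and Scube2 among them, are drawn at their fitted changes, which are no measure of fold.

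Among the members that were lower at 48 h than at 24 h, Mfap4, a protein of elastic microfibrils, read 7.37, 6.97, 7.02 and 6.25 in the on samples, 10.74, 9.45, 9.80 and 10.12 at 24 h, and 7.61, 7.93, 7.50 and 8.66 at 48 h. The difference of 48 h from 24 h was -2.10 (SE 0.32, limma adjusted p = 0.00138), and no 48 h array reached the 24 h values. Mfap4 had thus lost most of its rise by 48 h while still above every on sample. Within the second chip the difference was -1.95 (limma adjusted p = 0.0657).

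Scube2, a secreted protein that helps release hedgehog ligands, read 4.50, 4.22, 4.32 and 4.25 in the on samples, 6.92, 6.19, 5.54 and 7.10 at 24 h, and 4.54, 4.55, 4.57 and 4.70 at 48 h. It was detected on 0 on arrays, 4 arrays at 24 h and 0 arrays at 48 h. The level at 24 h was at least 3.08-fold higher than in the on samples and at least 3.19-fold higher than at 48 h (limma adjusted p = 0.00107 for 48 h against 24 h). Its place among lasting rises thus rests on 48 h values below the detection limit, and no fold can be given for them.

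Pltp, which transfers phospholipids between lipoproteins and is abundant in alveolar cells, read 6.19, 6.29, 6.59 and 7.23 at 48 h, against 8.61, 7.38, 7.72 and 9.25 at 24 h. The difference was -1.66 (SE 0.35, limma adjusted p = 0.00599). The 24 h values spread over almost 2 log2 units, with replicates 1 and 4 highest. With the chip as a term the difference was -1.33 and did not pass (limma adjusted p = 0.081).

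Thrombomodulin (Thbd), an anticoagulant receptor of endothelium, read 8.69, 8.46, 8.55 and 9.17 at 48 h, against 10.41, 9.60, 9.70 and 10.22 at 24 h, a difference of -1.27 (SE 0.20, limma adjusted p = 0.00182). Cavin2, a coat protein of caveolae, read 9.02, 8.79, 8.89 and 9.61 at 48 h, against 10.63, 10.01, 9.89 and 10.45 at 24 h, a difference of -1.17 (SE 0.21, limma adjusted p = 0.00278). Mmp2, a gelatinase that cleaves matrix, read 8.80, 8.9997, 8.58 and 9.51 at 48 h, against 10.36, 9.93, 9.83 and 10.38 at 24 h, a difference of -1.15 (SE 0.23, limma adjusted p = 0.00463). In all 3 genes no 48 h value reached the 24 h values, and 48 h replicate 4 came nearest. With the chip as a term Thbd and Cavin2 passed (limma adjusted p = 0.0296 and 0.0431) and Mmp2 did not (limma adjusted p = 0.0531); within the second chip none of these 3 passed.

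Among the members that were higher at 48 h than at 24 h, Traf1, an adaptor of tumor necrosis factor receptors, read 8.47, 8.28, 8.51 and 8.63 in the on samples, 9.54, 9.39, 9.58 and 9.56 at 24 h, and 10.61, 11.03, 10.48 and 10.66 at 48 h. By this member probe Traf1 stood at 3 separate levels, with little spread inside each group. The difference of 48 h from 24 h was 1.18 (SE 0.12, limma adjusted p = 0.000245). Another Traf1 probe, ILMN_1253947, changed by 0.44 at 24 h and 1.40 at 48 h against on. Its 24 h arrays overlapped the on arrays, and its 48 h arrays lay above them. Rasl12, a small GTPase, read 11.35, 11.24, 10.96 and 11.15 at 48 h, against 10.26, 10.16, 10.14 and 10.04 at 24 h, a difference of 1.02 (SE 0.14, limma adjusted p = 0.000903). Both genes also passed within the second chip, with differences of 1.05 and 0.90 (limma adjusted p = 0.018 and 0.0269).

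Txnip, the thioredoxin-interacting protein that restrains glucose uptake, read 11.54, 11.59, 11.38 and 12.22 in the on samples, 12.37, 12.23, 12.52 and 12.53 at 24 h, and 13.48, 13.34, 13.02 and 13.31 at 48 h. The difference of 48 h from 24 h was 0.88 (SE 0.17, limma adjusted p = 0.00365). The lowest 24 h value of Txnip was hardly above the highest on value, whereas all 48 h values stood apart. With the chip as a term the difference was 0.75 (limma adjusted p = 0.0522). Another Txnip probe, which was not a member, changed by 0.51 at 24 h and 1.37 at 48 h.

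Khk, the kinase that commits fructose to metabolism, read 9.62, 9.69, 9.16 and 9.34 at 48 h, against 8.41, 8.76, 8.49 and 8.71 at 24 h, a difference of 0.86 (SE 0.13, limma adjusted p = 0.00127). Its second member probe differed by 0.56 (limma adjusted p = 0.0108). Mpp3, a membrane scaffold protein, read 6.92, 6.91, 6.18 and 6.79 at 48 h, against 5.86, 5.97, 5.78 and 5.61 at 24 h, a difference of 0.90 (limma adjusted p = 0.00657). For both genes 48 h replicate 3 was the lowest of its group, and all the same above every 24 h array. With the chip as a term Khk passed (limma adjusted p = 0.0157) and Mpp3 did not (limma adjusted p = 0.0895).

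Sh3d21, an SH3 domain protein, read 9.81, 10.76, 9.30 and 10.20 at 48 h, against 9.28, 9.28, 9.17 and 9.15 at 24 h, a difference of 0.80 (SE 0.23, limma adjusted p = 0.0261). Its 48 h values spread over 1.46 and its 24 h values over 0.13. The test did not pass with the chip as a term (limma adjusted p = 0.249). The unnamed probe ILMN_1244796 had the largest upward difference among members, 1.40 (SE 0.15, limma adjusted p = 0.000245); it is named here after its values were seen. It was undetected on all on arrays, and its level was at least 1.44-fold higher at 24 h and at least 3.78-fold higher at 48 h.

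Slc10a6, a carrier of steroid sulfates, had 2 member probes, both higher at 48 h than at 24 h, by 0.64 and 0.67 (limma adjusted p = 0.0226 and 0.0144). Mest, an imprinted gene expressed from the paternal allele, also had 2, both lower at 48 h than at 24 h, with differences of -0.86 and -0.64 (limma adjusted p = 0.00546 and 0.00598). One Mest probe was undetected on all on arrays, with a rise of at least 1.89-fold at 24 h and at least 1.22-fold at 48 h. Of the 2 probes of Lims2, a LIM protein of cell-matrix contacts, 1 passed as lower at 48 h (-0.73, limma adjusted p = 0.0245) and the other did not (-0.56, limma adjusted p = 0.0511).

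**Figure D4:**
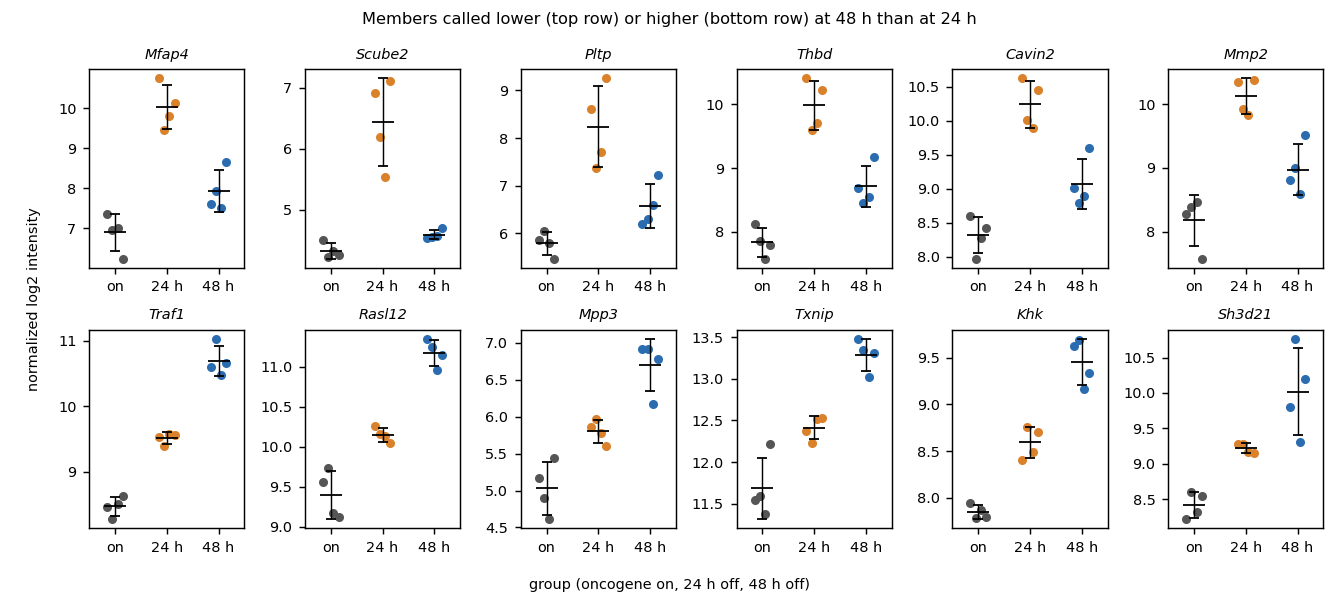
Normalized log2 intensity (y axis) of the 6 named members most lower (top row) and the 6 most higher (bottom row) at 48 h than at 24 h among those called, on each array (points) with mean and SD (bars, n = 4), in the on, 24 h off and 48 h off groups. In each of the 12 panels the 48 h points do not overlap the 24 h points; Scube2 at 48 h lies at the level of the on samples, where it was undetected.

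Gene lists for cell types and pathways place the members in the tissue. They were chosen with earlier results of these data in view, so they are used to describe and not to support. A gene was called if at least 1 of its tested probes was called and its called probes ran the same way. Over all 11398 genes tested, 15.0% were called higher and 15.4% lower at 24 h against on, 12.7% higher and 13.8% lower at 48 h against on, and 15.1% higher and 17.3% lower at 48 h against 24 h. Of the 41 lists, 17 held at least 1 member and 24 held none. In total 35 of the 176 member genes were on a list. With the chip as a term in the fit, a setting added after the data were seen, 5 endothelial, 2 type 1, 5 fibroblast and 4 macrophage genes were called lower at 48 h than at 24 h, and 4 FOXO target genes higher, beside 5.04% lower and 2.92% higher among all genes tested. Against on at 48 h it called 9 endothelial, 4 type 1, 1 fibroblast and 10 FOXO target genes higher, beside 10.5% of all genes tested. Against on at 24 h, where no chip held both groups, it called 2, 2, 0 and 0 of them higher, beside 0.491% of all genes tested. Since the members had to be higher than on, the counts against on below are also given for the genes of a list that are not members.

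Of the 15 type 1 cell genes tested, 10 were called higher and 1 lower at 24 h, and 7 higher and 1 lower at 48 h. The 5 members among them were Hopx, Rtkn2, Akap5, Cav1 and Sema3e. Among the 10 genes that were not members, 5 were called higher at 24 h and 2 at 48 h, and 1 was lower at each time. The defining marker Ager changed by 0.53 at 24 h, where it was called, and by 0.39 at 48 h, where it was not, and Pdpn was called at neither time.

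Rtkn2, a gene known from type 1 cells, read 6.71, 6.81, 6.88 and 7.15 by its first probe in the on samples, 8.68, 7.80, 8.04 and 9.44 at 24 h, and 8.11, 8.10, 8.15 and 8.43 at 48 h. Its 24 h samples differed widely, with replicates 1 and 4 highest, while the 48 h samples spread over 0.32. Akap5, an anchor of protein kinase A, changed by 0.89 at 24 h and 0.84 at 48 h. Its 24 h replicate 3, at 9.93, lay between the on samples and the other 24 h samples.

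Caveolin 1 (Cav1), a main protein of caveolae in type 1 cells and endothelium alike, read 10.38, 9.68, 9.77 and 10.03 in the on samples, 12.08, 11.49, 11.48 and 11.77 at 24 h, and 10.66, 10.68, 10.54 and 11.22 at 48 h. It is described for both cell types because its level is shared by them. It was lower at 48 h than at 24 h (difference -0.93, limma adjusted p = 0.00536), and was the 1 member of the type 1 list that passed this test. All 6 member probes of the list had a lower mean at 48 h than at 24 h, with a median difference of -0.29 beside -0.02 over all members.

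Of 17 endothelial genes tested, 13 were called higher and 1 lower at 24 h, and 10 higher and 1 lower at 48 h. The members were Pecam1, Egfl7, Sox17, Sox18, Ramp2 and Gpihbp1. Of the 11 genes that were not members, 7 were higher and 1 lower at 24 h, and 4 were higher and 1 lower at 48 h. Between the times, 9 of the 17 were called lower at 48 h and 0 higher. The summed level of the list on the log2 scale lay between 13.58 and 13.73 in the on samples, between 14.03 and 14.47 at 24 h and between 13.95 and 14.01 at 48 h.

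Sox17 and Sox18 encode transcription factors of vascular endothelium. The first Sox17 probe read 6.24, 6.32, 5.74 and 5.96 in the on samples, 8.02, 7.33, 7.45 and 7.54 at 24 h, and 6.90, 6.97, 7.01 and 6.91 at 48 h. Both Sox17 probes were lower at 48 h than at 24 h, with differences of -0.64 and -0.53 (limma adjusted p = 0.012 and 0.0235). Sox18 read 9.33, 9.14, 9.57 and 9.18 at 48 h, against 9.62, 9.03, 9.41 and 9.22 at 24 h. Sox18 values overlapped fully, and the difference was -0.02 (SE 0.15, limma adjusted p = 0.943).

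Ramp2, a partner of the adrenomedullin receptor, read 9.81, 9.38, 9.46 and 9.23 in the on samples, 11.41, 10.42, 10.84 and 11.28 at 24 h, and 10.25, 10.34, 10.31 and 10.64 at 48 h. It was lower at 48 h than at 24 h (difference -0.61, limma adjusted p = 0.0416), with 1 pair of arrays overlapping. Pecam1, an adhesion molecule of endothelial junctions, changed by 1.04 at 24 h and 0.76 at 48 h by its member probe, and by 0.99 and 0.42 by a brighter probe that was not a member. Egfl7, a secreted factor of vessels, changed by 0.86 and 0.73, and Gpihbp1, which carries lipoprotein lipase across capillaries, by 1.24 and 0.89. These are values of member probes. Other Egfl7 probes changed by 0.64 and 0.48 (ILMN_1215919) and by 0.02 and 0.23 (ILMN_2631417). Another Gpihbp1 probe, ILMN_2614842, changed by 1.92 and 0.53, and a further Pecam1 probe, ILMN_1226690, by 0.37 and 0.23. In each of these last probes, off and on arrays overlapped.

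Several further members are known from vessels, named here after their values were seen. Gata2, a transcription factor of endothelium and blood progenitors, changed by 1.83 at 24 h and 1.25 at 48 h and was lower at 48 h than at 24 h (difference -0.57, limma adjusted p = 0.0293). Icam2, an endothelial adhesion molecule, changed by 1.90 and 0.78, and was lower at 48 h than at 24 h (difference -1.12, limma adjusted p = 0.00201). Lyve1, a hyaluronan receptor of lymphatic vessels, changed by 1.94 and 1.30, and Cd93 by 1.15 and 1.06, without passing the test between the times. Angpt2, a ligand of the Tie2 receptor, changed by 0.87 and 0.98.

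Fibroblast genes were called mostly at 24 h. Of 15 tested, 11 were higher and 0 lower at 24 h, and 4 were higher and 1 lower at 48 h, with Col3a1 and Mfap4 as members. Among the 13 others, 9 were higher at 24 h, and 2 were higher and 1 lower at 48 h. Col3a1, a fibrillar collagen, read 7.30, 7.02, 6.40 and 6.86 in the on samples, 8.94, 8.48, 8.96 and 8.60 at 24 h, and 7.46, 7.58, 7.51 and 8.79 at 48 h. At 48 h replicate 4 stood at the 24 h level and the other 3 just above the on level, and the difference of 48 h from 24 h was -0.91 (limma adjusted p = 0.0302). The same array had the highest summed level of the fibroblast list at 48 h, 14.98, where the others of its group had 13.95 to 14.16. Another Col3a1 probe, ILMN_2683958, was not a member. It changed by 1.03 at 24 h and 0.06 at 48 h, with off and on arrays overlapping.

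Markers of blood cells moved along with these groups at 24 h. On the macrophage list 9 of 17 genes were called higher and 0 lower at 24 h, 0 higher and 4 lower at 48 h, and 12 of them had fallen at 48 h relative to 24 h; its summed level lay between 13.46 and 13.85 in the on samples, between 14.38 and 14.57 at 24 h and between 12.78 and 13.75 at 48 h. On the red blood cell list 5 of 6 genes were higher at 24 h and 0 at 48 h, and its summed level lay between 12.12 and 12.93 in the on samples, between 13.59 and 14.81 at 24 h and between 10.74 and 13.26 at 48 h. Neither list held a member. At 48 h the levels of both lists lay within or below the range of the on samples on every array but 48 h replicate 4. That array was above the range for red blood cells. The part of these cells in the higher member levels at 24 h and at 48 h was not tested.

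**Figure D5:**
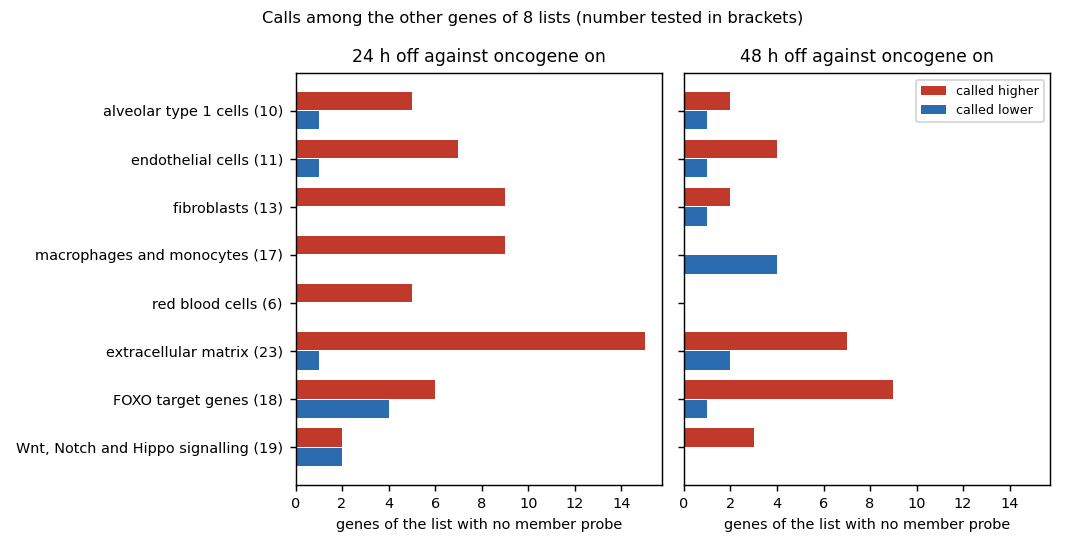
Number of genes (x axis) called higher (red) or lower (blue) among the genes without a member probe in 8 lists, at 24 h off (left) and 48 h off (right) against oncogene on, with the number of such genes tested in brackets. At 48 h the counts higher are smaller than at 24 h for type 1, endothelial, fibroblast, macrophage, red blood cell and matrix genes. They are larger for FOXO targets, 9 against 6 of 18, and for Wnt, Notch and Hippo genes, 3 against 2 of 19.

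FOXO target genes held 4 members, Sesn1, Txnip, Il7r and Tsc22d3. Of 22 genes tested, 9 were higher and 4 lower at 24 h, and 13 were higher and 1 lower at 48 h. Among the 18 that were not members, 6 were higher and 4 lower at 24 h, and 9 were higher and 1 lower at 48 h. Between the times 7 of the 22 were called higher at 48 h and 0 lower. All 5 member probes of this list had a higher mean at 48 h than at 24 h, with a median difference of 0.32, but Txnip alone among them passed the test.

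Sestrin 1 (Sesn1), which restrains mTORC1, read 8.02, 7.9992, 7.81 and 7.83 in the on samples, 8.78, 8.42, 8.94 and 8.65 at 24 h, and 8.28, 9.24, 8.15 and 9.28 at 48 h. Tsc22d3, a leucine zipper protein also induced by glucocorticoids, read 10.90, 9.96, 10.12 and 10.91 in the on samples, 11.17, 11.27, 11.38 and 11.30 at 24 h, and 11.53, 12.12, 11.23 and 12.03 at 48 h. Il7r, the interleukin 7 receptor of lymphocytes, read 6.78, 6.68, 6.72 and 6.32 in the on samples, 7.17, 7.38, 7.87 and 7.47 at 24 h, and 7.47, 8.01, 6.84 and 8.83 at 48 h. In these 3 genes 48 h replicates 2 and 4 were the highest of their group and replicate 3 the lowest, which crosses the chips. The T cell markers Cd3e and Cd3g were also highest at 48 h in replicate 4, at 8.15 and 8.37, and lowest in replicate 3, at 6.33 and 6.58. The values of Sesn1, Tsc22d3 and Il7r are those of member probes. Other Tsc22d3 probes changed by 0.09 and -0.01 (ILMN_2648224) and by 0.95 and 0.66 (ILMN_2701664). Another Il7r probe changed by 0.06 and 0.39, and another Sesn1 probe by 0.74 and 0.54. In each of these other probes, off and on arrays overlapped.

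On the list of T and NK cell genes, which also holds Il7r, 3 of 11 were higher at 24 h and 1 at 48 h, and 0 were lower at either time. Without Il7r, 3 of 10 were higher at 24 h and 0 at 48 h. On the glucocorticoid list, with Tsc22d3 and Mt1 as members, 6 of 16 were higher and 0 lower at 24 h, and 7 were higher and 1 lower at 48 h. Of the 14 others, 4 were higher at 24 h, and 5 were higher and 1 lower at 48 h. Mt1, a metal-binding metallothionein, changed by 0.95 and 1.10. Its off arrays lay between 13.07 and 13.54 against 12.03 to 12.61 in the on samples.

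Wnt, Notch and Hippo genes had 4 members among 23 tested, with 6 called higher and 2 lower at 24 h and 7 higher and 0 lower at 48 h. Outside the members 2 of 19 were higher and 2 lower at 24 h, and 3 were higher and 0 lower at 48 h. Hey1 and Heyl, transcriptional repressors downstream of Notch, changed by 1.21 and 0.83 at 24 h and by 0.96 and 0.73 at 48 h. Hey1 read 9.09, 9.46, 9.24 and 9.29 at 48 h, against 8.60, 8.11, 8.15 and 8.37 in the on samples. Wwtr1, the Hippo effector TAZ, changed by 0.98 at 24 h and 0.77 at 48 h by its member probe. Its other probes changed less, ILMN_2732998 by 0.19 and 0.12 and ILMN_2732997 by 0.42 and 0.19, with off and on arrays overlapping. Dkk3, a secreted protein of the dickkopf family, changed by 1.05 and 1.12 at 24 h and by 0.75 and 0.87 at 48 h over its probes. None of these 4 passed the test between the times.

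On the matrix list, which shares 7 tested genes with the fibroblast list, 17 of 25 genes were higher and 1 lower at 24 h, and 9 were higher and 2 lower at 48 h. Outside the members Col3a1 and Loxl1, 15 of 23 were higher and 1 lower at 24 h, and 7 were higher and 2 lower at 48 h. Loxl1, which cross-links elastin, changed by 1.21 at 24 h and 0.82 at 48 h. Ltbp4, which binds latent TGF-beta and helps elastic fibres assemble, changed by 1.20 and 0.85 at 24 h over its probes and by 0.97 and 0.85 at 48 h. Col4a4, described above, had almost the same level at both times. Of 29 collagen genes tested, 4 were members, Col3a1, Col4a4, Col14a1 and Col24a1, beside 176 of all 11398 genes tested. The collagens were picked as a family after the members were known, so nothing is read from this share.

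Proteases and inhibitors held Mmp2 and Timp3 as members, with 6 of 19 genes higher and 2 lower at 24 h, and 2 higher and 3 lower at 48 h. Of the 17 others, 4 were higher and 2 lower at 24 h, and 0 were higher and 3 lower at 48 h. The 2 probes of Timp3, an inhibitor of metalloproteinases, went apart between the times. The brighter probe read 12.27, 12.10, 12.13 and 12.36 at 48 h, against 11.94, 11.68, 11.84 and 12.05 at 24 h, and was higher at 48 h by 0.33 (limma adjusted p = 0.0421). The dimmer probe read 6.89, 7.01, 7.12 and 7.46 at 48 h, against 7.46, 7.22, 7.72 and 8.67 at 24 h, a difference of -0.64 (limma adjusted p = 0.0973). Timp3 as a gene therefore has no settled direction between the times.

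Of 16 semaphorin genes tested, which encode guidance cues for axons and vessels, 5 were members, beside 176 of all 11398 genes tested. The family was picked after the members were known, so nothing is read from this share. Their changes lay between 0.71 and 1.13 at 24 h and between 0.55 and 1.41 at 48 h. Sema4f had 2 member probes, with 0.91 and 1.13 at 24 h and 1.41 and 1.36 at 48 h. Sema3e, which acts on plexin D1 of endothelium, had 0.84 and 0.55 and is also a type 1 cell gene of the lists.

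Ednrb, the endothelin B receptor, read 6.68, 4.94, 5.72 and 6.32 by its dimmer probe in the on samples, 7.90, 7.28, 7.01 and 7.61 at 24 h, and 6.99, 7.11, 7.11 and 7.36 at 48 h. The on samples spread over 1.74 log2 units, more than either off group. The brighter probe changed by 1.10 at 24 h and 1.07 at 48 h. Edn3, one of its ligands, changed by 0.58 and 0.93. Npr2 and Npr3, receptors for natriuretic peptides, changed by 1.08 and 1.06 at 24 h and by 1.55 and 0.74 at 48 h. No member of these receptor systems passed the test between the times.

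Cxcl12, the chemokine ligand of Cxcr4, was the 1 member among 25 chemokine and cytokine genes, of which 6 were higher and 1 lower at 24 h, and 1 was higher and 4 were lower at 48 h. Of the 24 others, 5 were higher and 1 lower at 24 h, and 0 were higher and 4 lower at 48 h. Cxcl12 read 9.57, 10.01, 9.62 and 9.44 in the on samples, 10.98, 10.77, 10.89 and 11.04 at 24 h, and 10.47, 10.23, 10.21 and 10.69 at 48 h. Cxcl12 was lower at 48 h than at 24 h (difference -0.52, limma adjusted p = 0.0187). Its other probes were not members: ILMN_3158250 changed by 0.43 and 0.37 and ILMN_2737302 by 0.53 and 0.17, and their off arrays overlapped with the on arrays. Its receptor Cxcr4 was itself a member, with changes of 0.82 and 0.76.

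Interferon response genes had Ifit2 and Oasl2 as members, with 6 of 22 genes higher at 24 h and 5 at 48 h, and 0 lower at either time. Outside the members 4 of 20 were higher at 24 h and 3 at 48 h. Ifit2, which blocks translation of viral RNA, changed by 1.50 and 1.48 at 24 h over its probes and by 0.93 and 1.04 at 48 h, and 1 of its 2 probes passed as lower at 48 h than at 24 h. Oasl2 changed by 0.85 and 0.84 by its member probe. Its other tested probes, ILMN_2552783 at -0.21 and 0.14 and ILMN_2599154 at 0.04 and 0.26, had off and on arrays overlapping. Complement genes had Cd59a and Hc as members, with 6 of 14 higher at 24 h and 3 at 48 h, and 0 lower; of the 12 others 4 were higher at 24 h and 1 at 48 h. Cd59a, which blocks the membrane attack complex, changed by 1.05 and 0.80, and Hc, complement component C5, by 1.00 and 0.92.

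Hc was also the 1 member on the type 2 cell and surfactant list. On that list 3 of 20 genes were higher and 2 lower at 24 h, and 2 were higher and 8 lower at 48 h. Without Hc, 2 of 19 were higher at 24 h and 1 at 48 h. Sftpb was lower at 48 h than with the oncogene on (difference -0.79, limma adjusted p = 0.00199), whereas Sftpc was called at neither time. On the list of lung transcription factors, with Hopx as its member, 2 of 21 were higher and 9 lower at 24 h, and 3 were higher and 8 lower at 48 h, with 1 and 2 of the 20 others higher at 24 h and 48 h. On the list of epithelial channels and carriers, 4 of 17 were higher and 4 lower at 24 h, and 5 were higher and 3 lower at 48 h, with 2 and 3 of the 15 others higher at 24 h and 48 h. Its members were Ano1, a chloride channel, which changed by 0.99 and 0.85, and Slc7a8, an amino acid carrier, which changed by 0.94 and 0.93.

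Lysosome and autophagy genes had Ctsa and Npc1 as members, with 11 of 34 higher and 4 lower at 24 h, and 3 higher and 2 lower at 48 h. Of the 32 others, 10 were higher and 4 lower at 24 h, and 2 were higher and 2 lower at 48 h. Ctsa, the protective protein cathepsin A, read 9.85, 9.49, 9.54 and 10.12 by its member probe at 48 h, against 10.96, 10.31, 10.01 and 10.96 at 24 h. The difference was -0.81 (limma adjusted p = 0.0167) with overlap of 48 h replicate 4. Its other tested probes did not show a lasting rise. At 24 h and 48 h against on, ILMN_1213617 changed by 0.94 and -0.67 and ILMN_3120827 by -0.40 and -0.19. ILMN_2681631 changed by 0.11 and -0.02, and ILMN_3045359 by 0.06 and -0.50. Cdkn2c, an inhibitor of the kinases CDK4 and CDK6, was the 1 member among 15 cell cycle inhibitors, of which 7 were higher and 1 lower at 24 h and 3 higher and 2 lower at 48 h; of the 14 others 6 were higher and 1 lower at 24 h, and 2 were higher and 2 lower at 48 h. The member probe of Cdkn2c was undetected on all on arrays and its rise at 24 h was at least 1.29-fold. At 48 h 2 of 4 arrays detected this probe, and its mean was under the detection bound. Probe ILMN_1228366, not a member though detected on all 12 arrays, changed by 0.75 at 24 h and 0.30 at 48 h. All its off arrays lay above all its on arrays. Probe ILMN_2420939 changed by 0.58 and -0.08, with off and on arrays overlapping.

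The lists of ERK feedback, glycolysis and cell cycle genes held no member. Of 17 genes of ERK feedback and immediate early response, 0 were higher and 12 lower at 24 h, and 0 higher and 12 lower at 48 h. Of 18 genes of glycolysis and hypoxia response, 1 was higher and 13 were lower at each time. Of 23 cell cycle and DNA replication genes, 5 were higher and 2 lower at 24 h and 0 higher and 11 lower at 48 h.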

How the data were processed

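Biotinylated cRNA made from total RNA was hybridised to 12 Illumina mouse arrays, per the labels' protocols. The authors deposited a scanner table with, per the file headers, an average linear intensity of the beads of each probe, their standard error as a signal value, a count of beads (median 44) and the authors' detection p-value. Another 24 columns of per-sample values were not used. The deposited value table holds log2 values whose log2 was taken again, as its values show: raised to the power of 2, 100% of cells were whole hundredths within 0.001 hundredths, and columns ranked probes as the scanner did.

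The choice of members used the restored value table and the detection p-values. Levels and tests used neqc in limma 3.58.1 (R 4.3.3), with an offset of 16, quantile normalization and log2, on 21232 probes detected (p below 0.05) on at least 4 arrays. One limma model of 3 groups was fitted to all arrays, with 9 residual and 3.51 prior degrees of freedom, and p-values were adjusted by Benjamini-Hochberg over all probes tested. The number of arrays limits the precision. The model had no chip or replicate term. The numbers do not pair the samples: same-numbered arrays correlated in their deviations from the group means by -0.29 to 0.22, and 3 of 12 arrays correlated best with their own number.

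Gene symbols came from GEO's platform annotation, which can be old, and gave 34885 probes 1 symbol, 18 several and 10378 none; promoters and positions came from RefSeq (GRCm38.p6). The members and the 41 gene lists were chosen with earlier results of these data known. Genes named with values are the 10 members with the largest rise at both times, up to 6 in each direction between the times, up to 3 members per list, probes at the threshold, genes with several member probes, and up to 3 defining markers beside a result; others are stated as chosen after their values were seen. The model was tested on simulated data. Alternatives covered background correction, normalization, source table, filters, chip, replicate number and each array left out. Plots were made in Python 3.11.15 (matplotlib 3.10.9). The oncogene is not reported here.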

Additional observations from a re-analysis of the deposited data

Results flagged for a closer look

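The test between 48 h and 24 h, made on the same 12 arrays as the choice of members, marked 12 named members and the counts of all members called, 31 lower and 24 higher at 48 h. The differences on the log2 scale were -2.10 for Mfap4, -1.66 for Pltp, -1.27 for Thbd, -1.17 for Cavin2 and -1.15 for Mmp2, and 1.18 for Traf1, 1.02 for Rasl12, 0.90 for Mpp3, 0.88 for Txnip, 0.86 for Khk and 0.80 for Sh3d21. The fitted difference of Scube2, -1.85, is no measure of fold, since it was undetected on every 48 h array: its level at 24 h was at least 3.19-fold higher. One array stood far from the other 3 of its group: Fam184a read 6.85 in 48 h replicate 3, a gap of 0.847 of the range of that group. It was 1 of 69 groups of 4 arrays examined in this way, and chance gives about 1 in 20.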

How the results depend on the processing

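The number of members followed the thresholds: 51 with a rise of 1 asked for, 402 with 0.5, and 362 if overlap with the on samples was allowed. Applied to the neqc values the rule found 190 probes, 185 of them shared, and leaving out each array in turn gave 180 to 301. The median changes of members at 24 h and 48 h against on were 0.758 and 0.725 with no background correction and 0.759 and 0.726 with normexp without detection information, which also had an offset of 50 in place of 16; the cause was not tested. Between 48 h and 24 h, the chip as a fixed term left 5 members higher and 7 lower, and the chip of the 24 h arrays alone left 3 and 2, with fewer arrays in the comparison. Leaving out each array in turn gave 17 to 25 higher and 16 to 43 lower, the lowest without 48 h replicate 2. With the replicate number as a block, 21 members were higher and 33 lower. No result reversed under any alternative run, all of which used these same arrays or part of them. Of the 12 named members in this test, Traf1 and Rasl12 passed in all 24 alternatives, and Sh3d21 missed in 9. Dim probes limit precision, since 16 members were undetected on every on array.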
